A study of Mus musculus with 12 samples.

Results

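The hearts of all 8 diabetic mice of this series, with and without angiotensin IV treatment, were compared as 1 group with the hearts of the 4 control mice. The groups were taken from the sample titles, and the 12 arrays used are all 12 arrays of the series. Each array measured RNA from the myocardium of 1 mouse. The negative control group (NC, n = 4) had been given intraperitoneal vehicle daily for 5 days and is labelled untreated. The diabetes mellitus group (DM, n = 4) had been given streptozotocin, a toxin taken up by the insulin-producing beta cells of the pancreas, for 5 days, and its mice were kept where fasting glucose reached 16.7 mM or more 2 weeks after the injections. The third group (DM_AngIV, n = 4) was made diabetic in the same way and then received high-dose angiotensin IV, a peptide cut from angiotensin II, between weeks 8 and 24 (2.88 mg/kg/day). All samples carry the label 6 months, and the labels do not say whether this is an age or a time after injection. The labels name no strain, sex, hour of collection or sham infusion. The infusion can be compared within diabetic mice, as DM_AngIV against DM, but no group received angiotensin IV without diabetes.

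Loss of insulin moves the heart away from glucose and towards fatty acids as fuel, and releases the FoxO transcription factors that insulin signalling holds in the cytoplasm. Heart muscle also keeps its own circadian clock, in which the activators BMAL1 (gene Arntl) and CLOCK switch on the Per, Cry and Nr1d genes, whose products feed back on the activators or on their genes. Many metabolic genes of the heart follow this clock, glucocorticoid hormones or both.

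The values are log2 expression, so a difference of 1 is a 2-fold difference. Array medians lay between 4.12 and 4.19, and between 38.9% and 45.6% of the 19505 genes lay above the 95th percentile of the array's own reporter control probes. Over all arrays this percentile was 4.96, and a gene that never exceeds it within a group is described as not above background there. All 14 cardiomyocyte markers were above it, and Myh6, the main myosin heavy chain of the adult mouse heart, was at 11.84 ± 0.07 in NC and 11.85 ± 0.09 in the diabetic arrays (SD, n = 4 and n = 8). Atrial muscle RNA was uneven across the hearts. Myl7, a myosin light chain of atrial muscle, was above background in 5 of 12 arrays, at 10.08 and 7.90 in NC replicates 1 and 3 and at 8.86, 9.68 and 8.10 in DM replicates 1, 2 and 4, and in 0 of the 4 DM_AngIV arrays. Because each array is a bulk sample, fewer cells of a type and less RNA per cell cannot be told apart in any result here.

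Against control, the diabetic hearts had less RNA of the clock activators Arntl and Clock and more of the repressors Per2, Per3 and Nr1d2. They had more of Zbtb16, Mt1 and Mt2, which glucocorticoids induce, of the fuel genes Cpt1a, Pnpla2 and Fabp4, and of the muscle atrophy gene Fbxo32. They had less of Abat, which degrades the transmitter GABA in mitochondria, and of the ephrin receptor Epha4. In all, 66 of 19505 genes passed a limma adjusted p of 0.05, which is 0.338%, with 45 higher (0.231%) and 21 lower (0.108%) in the diabetic hearts. The median log2 difference was 0.79 among the 45 and −0.77 among the 21, and 12 of the 66 differed by more than 2-fold as measured. For 58 of the 66 the diabetic and NC values did not overlap, 40 higher and 18 lower, where 1.95% of all genes did not overlap (1.06% higher and 0.887% lower). At an unadjusted p below 0.05, without correction, 12.8% of all genes passed, 6.74% higher and 6.04% lower. The counts of list members below stand beside these shares, and beside 49.4% of all genes positive. The lists were chosen with earlier results of these data known, so these counts describe the lists and do not test them.

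The count of 66 moved with single arrays, while the sizes of the differences moved little. Without NC replicate 1, 2, 3 or 4 the count was 20, 2, 10 and 20. Without DM replicate 1, 2, 3 or 4 it was 39, 25, 132 and 223, and without DM_AngIV replicate 1, 2, 3 or 4 it was 34, 21, 21 and 27. All 66 genes kept their direction in each of these 12 omissions, with log2 differences between 0.795 and 1.21 times the value over all arrays. For the 58 genes without overlap, leaving arrays out could not change the direction. Arntl and Epha4 passed in all 12 omissions. Another 10 genes, Zbtb16, Pik3ip1, Rhobtb1, Per3, Tspan4, Cdk6, Ankrd12, Spon2, Abat and 2210407C18Rik, passed in at least 10. Of these, Cdk6, Ankrd12 and 2210407C18Rik were named after their values were seen, and 2210407C18Rik was above background in neither group. Leaving out the 5 arrays with Myl7 above background leaves 2 NC, 1 DM and 4 DM_AngIV arrays, so the diabetic side is nearly all DM_AngIV. Then 0 genes passed in limma (smallest adjusted p 0.0647, and 2117 genes at an unadjusted p below 0.05). All 66 kept their direction, with a median ratio to the log2 difference over all arrays of 1.07.

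**Figure D1:**
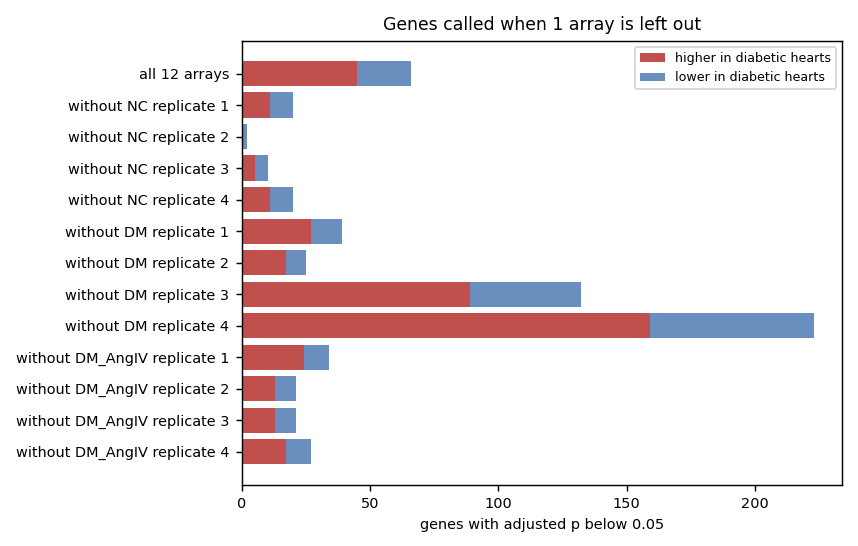
Number of genes higher and lower in the diabetic hearts at a limma adjusted p below 0.05 with all 12 arrays and with each array left out in turn. The count is 66 with all arrays and runs from 2 without NC replicate 2 to 223 without DM replicate 4.

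The clock genes held the most strongly supported change. Clock gene RNA varies with the hour of the day, and the labels give no hour of collection. Whether the groups differed in hour could therefore not be checked, and diabetes and hour cannot be told apart for these genes. Arntl encodes BMAL1, the partner of CLOCK on DNA. It was at 5.72, 5.94, 5.89 and 5.57 in NC replicates 1 to 4, at 4.44, 4.21, 4.51 and 4.44 in the DM arrays and at 3.52, 3.64, 3.55 and 4.10 in the DM_AngIV arrays. All diabetic values lay below all NC values, and all lay below the background level. Arntl fell by 1.73 ± 0.19 on the log2 scale (SE; limma adjusted p = 0.00138), and since the diabetic arrays give only an upper limit, it was at least 1.76-fold lower. Clock, the other activator, was at 7.75, 7.83, 7.87 and 7.79 in NC and between 6.99 and 7.54 in the diabetic arrays, with a median of 7.25. It fell by 0.52 ± 0.10 without overlap (limma adjusted p = 0.0437), and passed in 2 of the 12 omissions of an array.

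Among the repressors Per3, Per2 and Nr1d2 were higher, and among the output factors Tef. Per3, a member of the period family, was at 5.56, 4.92, 5.39 and 5.56 in NC and between 5.92 and 6.74 in the diabetic arrays, with a median of 6.43. It rose by 1.0 ± 0.15 (SE; limma adjusted p = 0.0128). Per2, a period protein that blocks BMAL1 and CLOCK, was at 4.80, 4.38, 4.54 and 4.70 in NC, not above background, and between 5.02 and 6.00 in the diabetic arrays, so it was at least 1.43-fold higher (limma adjusted p = 0.0297). Neither gene overlapped between the groups. Nr1d2, the nuclear receptor REV-ERB beta, which represses Arntl, rose from 7.17 ± 0.20 to 7.79 ± 0.17 (SD, n = 4 and n = 8; limma adjusted p = 0.0297), and Tef, a transcription factor of the clock output, was at least 1.17-fold higher (0.0241). Per2, Nr1d2 and Tef passed in 5, 4 and 6 of the 12 omissions.

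The promoters of Per3, Tef and Nr1d2 are shown. They were chosen because, among the clock genes that passed and rose, they hold letters that clock factors are known to bind. Per2, which also rose, had no promoter among those searched. Sequences are from RefSeq (GRCm38.p6), the 250 bases before each annotated start in the gene's direction. Capitals mark the D-box TTATGTAA in Per3 (chr4:151044666-151044915, minus strand), the E-box CACGTG at both starts of Tef (chr15:81802423-81802672 and chr15:81811164-81811413, plus strand) and the letters AGGTCA, the core of sites for ROR receptors and REV-ERBs, in Nr1d2 (chr14:18239107-18239356, minus strand). 
Per3: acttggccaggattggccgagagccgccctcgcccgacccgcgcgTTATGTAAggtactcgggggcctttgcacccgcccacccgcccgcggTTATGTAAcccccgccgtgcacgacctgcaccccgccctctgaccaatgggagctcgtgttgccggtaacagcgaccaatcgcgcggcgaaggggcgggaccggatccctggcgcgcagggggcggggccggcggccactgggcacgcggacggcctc
Tef, first start: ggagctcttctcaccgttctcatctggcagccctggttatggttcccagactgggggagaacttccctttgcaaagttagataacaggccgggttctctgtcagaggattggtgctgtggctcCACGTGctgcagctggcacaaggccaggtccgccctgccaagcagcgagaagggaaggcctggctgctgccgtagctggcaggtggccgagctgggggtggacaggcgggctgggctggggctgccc
Tef, second start: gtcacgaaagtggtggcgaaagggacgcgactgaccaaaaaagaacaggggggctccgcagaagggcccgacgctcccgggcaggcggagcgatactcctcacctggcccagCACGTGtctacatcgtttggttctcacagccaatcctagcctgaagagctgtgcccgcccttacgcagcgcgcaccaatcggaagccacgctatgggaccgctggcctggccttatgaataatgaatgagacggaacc
Nr1d2: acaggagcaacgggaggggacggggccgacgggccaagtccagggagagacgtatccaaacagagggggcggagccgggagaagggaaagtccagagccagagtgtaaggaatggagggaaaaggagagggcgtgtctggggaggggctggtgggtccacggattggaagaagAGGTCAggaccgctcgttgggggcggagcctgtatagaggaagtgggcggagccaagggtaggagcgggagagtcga

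The matches in Per3 begin 205 and 158 bases before the start, those in Tef 127 and 138, and that in Nr1d2 77. The motifs were searched on both strands and were chosen after the values were seen, and no printed match overlaps another. The E-box occurs in 6.02% of 32851 RefSeq promoters of this length and in 15.6% of the 77 starts matched to 55 of the 66 genes that changed. The D-box occurs in 0.819% of all promoters and 1.3% of these starts, and AGGTCA in 14% and 13%. Of the clock genes that fell, Clock has AGGTCA at 1 of its 3 starts, and Arntl has 0 matches to these motifs at its 2 starts. A match describes the letters in this window and no more, and binding was not measured here.

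Across the clock lists, the genes that passed were lower among the activators and higher among the repressors and outputs. Of 4 measured core activators, 2 fell and 0 rose, 1 was positive and the median log2 difference was −0.39. The positive one was Rora, a nuclear receptor that drives Arntl, with 0.55 ± 0.18 (SE; limma adjusted p = 0.190). Of 12 core repressors, 3 rose and 0 fell, 10 were positive and the median was 0.40. Of 11 output factors, 1 rose, 10 were positive and the median was 0.53, beside 49.4% positive and a median of −0.00 over all genes. Dbp, an output factor driven directly by BMAL1 and CLOCK, was at 8.33 ± 0.42 in NC and 9.05 ± 0.53 in the diabetic arrays (limma adjusted p = 0.224). Nr1d1, the paralogue of Nr1d2, had a difference of −0.25 (0.714), and Ciart, another repressor, had 1.37 (0.0609). Rora, Nr1d1 and Ciart were named after their values were seen.

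**Figure D2:**
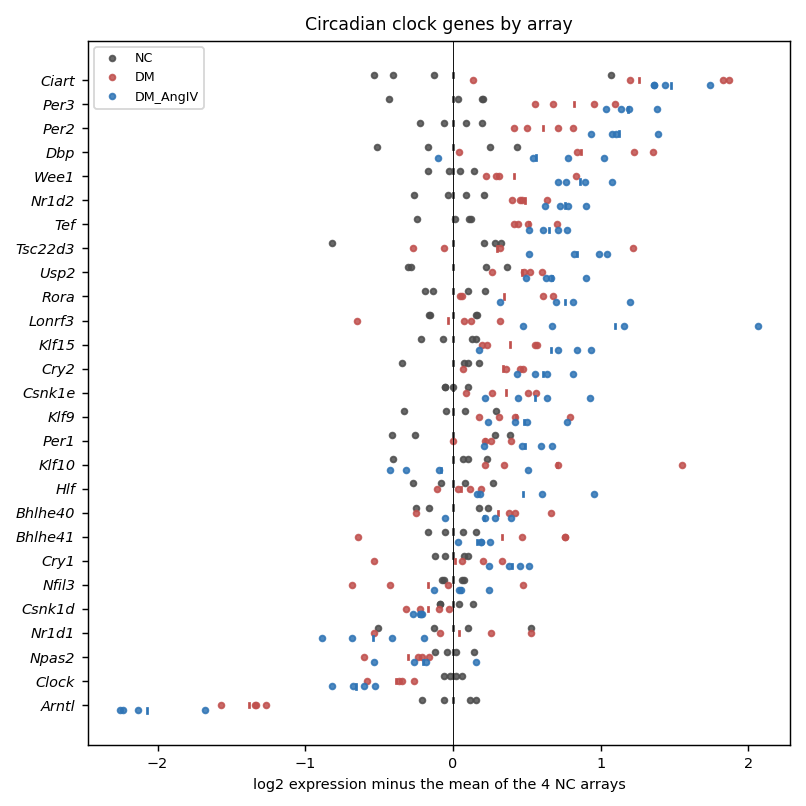
Log2 expression of 27 clock genes (rows) on each of the 12 arrays, minus the gene's mean over the 4 NC arrays (horizontal axis), with a dot for each array coloured by group and a short bar at each group's mean. Arntl and Clock are lower and Per2, Per3, Nr1d2 and Tef higher on all 8 diabetic arrays than on any NC array, while Dbp overlaps between the groups.

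Genes that glucocorticoids induce held the next group of rises. Zbtb16, a zinc finger transcription factor, was at 7.26, 6.51, 7.16 and 6.91 in NC, at 9.48, 8.82, 7.99 and 7.85 in DM and at 9.0, 9.37, 8.95 and 9.22 in DM_AngIV. Every diabetic array was above every NC array, and Zbtb16 rose by 1.87 ± 0.27 (SE; limma adjusted p = 0.00843). Mt2, a metallothionein that binds zinc and copper, was at 8.94, 8.03, 8.03 and 7.70 in NC and between 9.02 and 10.02 in the diabetic arrays, with a median of 9.37. It rose by 1.35 ± 0.21 (limma adjusted p = 0.0141), with NC replicate 1 close to the lowest diabetic array. Mt1, its neighbour and paralogue, rose from 9.74 ± 0.08 to 10.45 ± 0.22 (SD; limma adjusted p = 0.0178). Of 25 measured members of this list 3 rose and 0 fell, 22 were positive, and the median was 0.45. The list shares members with the clock lists, Klf9 and Klf15 among them, so these genes are counted in both. At an unadjusted p below 0.05, 14 of the 25 were higher, where 6.74% of all genes were. Fkbp5, the hormone receptor's co-chaperone, had a large difference that did not pass, at 5.73 ± 0.62 in NC and 7.73 ± 1.07 in the diabetic arrays (0.0709), and was named after its values were seen. The mean of the list differed among diabetic arrays, from 6.38 in DM replicate 4 to 7.28 in DM replicate 1, with NC between 6.01 and 6.46.

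Among FoxO targets 2 genes rose, and among insulin pathway genes none did. Pik3ip1, an inhibitor of phosphoinositide 3-kinase, the enzyme that carries the insulin signal, was at 7.95, 7.0, 7.52 and 7.61 in NC and between 8.14 and 9.21 in the diabetic arrays, and rose by 1.15 ± 0.18 (SE; limma adjusted p = 0.0152). Fbxo32, the ubiquitin ligase atrogin-1 of muscle atrophy, was at 7.59, 7.46, 7.57 and 7.61 in NC and between 7.86 and 8.60 in the diabetic arrays. It rose by 0.67 ± 0.12 with no overlap (limma adjusted p = 0.0353). Pik3ip1 and Fbxo32 passed in 10 and 3 of the 12 omissions of an array. These were 2 of 32 measured FoxO factors and targets, of which 25 were positive, with a median of 0.17. At an unadjusted p below 0.05, 13 of them were higher, where 6.74% of all genes were higher and 6.04% lower. Foxo1 itself was at 5.58 ± 0.15 and 5.66 ± 0.22 (limma adjusted p = 0.843). Of 28 insulin and IGF signalling genes 0 passed in limma, 6 were higher and 3 lower at an unadjusted p below 0.05, and the smallest adjusted p was that of Igf1r, the IGF1 receptor (difference 0.44, adjusted p = 0.102). Slc2a4, the insulin-responsive glucose transporter GLUT4, had a difference of −0.11 (0.723).

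The fatty acid genes that rose act in lipolysis, transport and entry into mitochondria. Pnpla2, the lipase ATGL that opens stored triglyceride, was at 9.64, 9.85, 9.74 and 9.74 in NC and between 10.08 and 10.63 in the diabetic arrays, and rose by 0.67 ± 0.12 (SE; limma adjusted p = 0.0243). Cpt1a, which loads long-chain fatty acids onto carnitine for entry into mitochondria, was at 6.05, 6.47, 6.59 and 6.46 in NC and between 6.72 and 7.71 in the diabetic arrays. It rose by 0.79 ± 0.16 (limma adjusted p = 0.0473). Fabp4, a fatty acid binding protein of capillary endothelium and fat cells, rose from 10.81 ± 0.07 to 11.23 ± 0.09 (SD; limma adjusted p = 0.0424). All 3 were without overlap, and they passed in 5, 2 and 3 of the 12 omissions.

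Around these genes most members were positive and did not pass. Of 22 genes of mitochondrial fatty acid oxidation 1 rose and 0 fell, 19 were positive and the median was 0.15. At an unadjusted p below 0.05, 9 of them were higher, where 6.74% of all genes were. Of 15 genes of lipid droplets and lipolysis 1 rose and 9 were positive, and of 11 genes of fatty acid uptake 1 rose and 8 were positive. The thioesterase Acot1, the uncoupling protein Ucp3 and the kinase Pdk4, which shuts pyruvate out of oxidation, had differences of 1.30, 1.03 and 1.01 (limma adjusted p = 0.0609, 0.293 and 0.279). Their diabetic values were wide: Pdk4 ran from 7.34 in DM_AngIV replicate 1 to 10.31 in DM replicate 1, with NC between 7.32 and 8.44. Angptl4, an inhibitor of lipoprotein lipase, had 0.44 (0.431). Among 22 glucose uptake and glycolysis genes Pfkfb3 alone passed. It makes the activator of phosphofructokinase and was higher (limma adjusted p = 0.0457), with no fold, since it was not above background in NC and its diabetic mean was below that level. Of 14 PPAR and PGC-1 regulators and 13 genes of pyruvate dehydrogenase control 0 passed in limma, with 3 and 3 higher at an unadjusted p below 0.05.

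**Figure D3:**
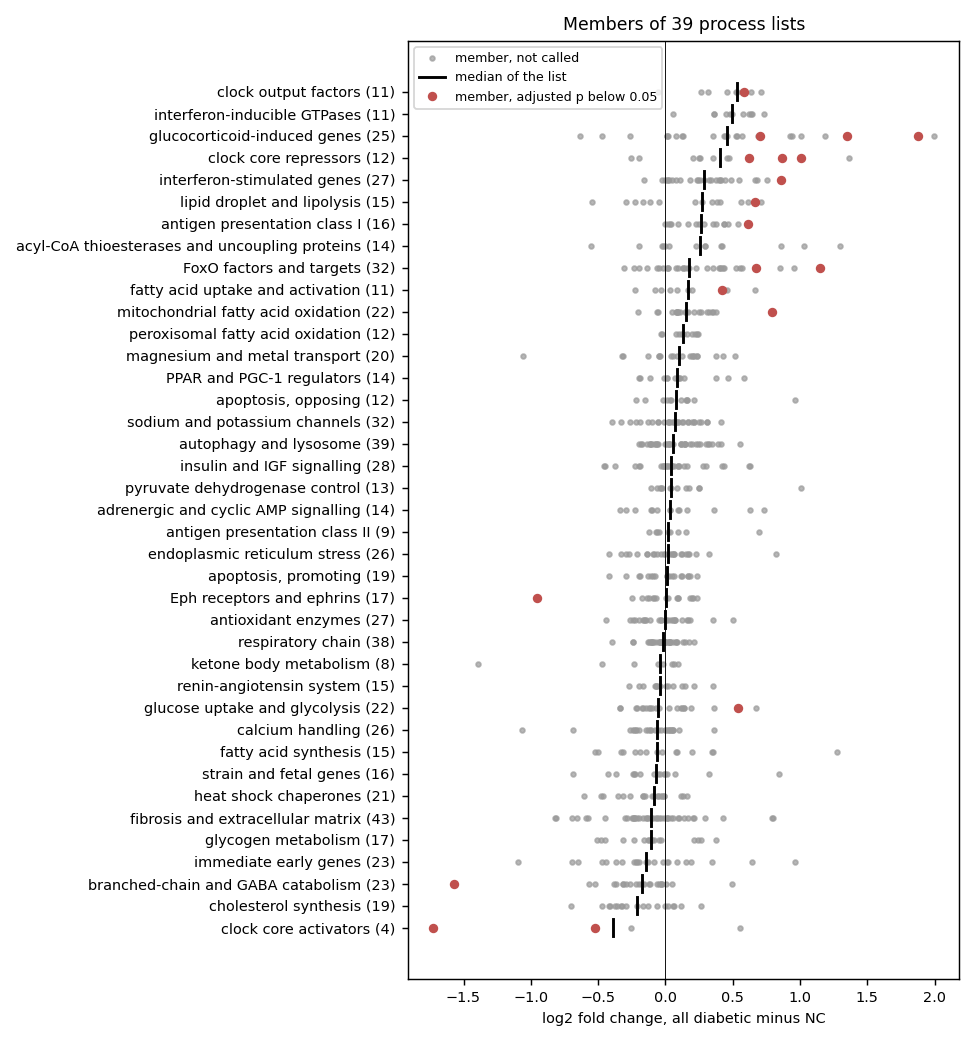
Log2 fold change, all diabetic minus NC, of each measured member (points) of 39 lists of processes, ordered by list median (vertical bars), with members that passed a limma adjusted p of 0.05 in red. The 3 lists with the highest medians are clock output factors, interferon-inducible GTPases and glucocorticoid-induced genes, and 13 of the 39 lists hold at least 1 gene that passed. Some genes are on more than 1 list.

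Among genes of amino acid breakdown, Abat fell. Abat was at 7.06, 7.46, 7.46 and 7.36 in NC, at 5.15, 5.16, 5.66 and 5.95 in DM and at 6.73, 5.74, 5.76 and 5.97 in DM_AngIV. It fell by 1.57 ± 0.22 (SE; limma adjusted p = 0.00843), with DM_AngIV replicate 1 nearest to the NC arrays. Of 23 genes of branched-chain amino acid and GABA breakdown Abat alone passed, 3 were positive, the median was −0.17, and 9 were lower at an unadjusted p below 0.05, where 6.04% of all genes were. The list's median was −0.25 in DM and −0.04 in DM_AngIV, both against NC, and its mean lay between 7.12 and 7.28 in DM_AngIV, between 6.8 and 7.06 in DM and between 7.17 and 7.42 in NC. Of 19 cholesterol synthesis genes 0 passed in limma, 5 were positive, the median was −0.21, and 8 were lower at an unadjusted p below 0.05. That median was −0.03 over the members above background on at least 4 arrays and −0.09 without the lower-expressed genes. Msmo1, a sterol oxidase, had the smallest adjusted p among them (0.0530) and was not above background in either group. Bdh1, which oxidises the ketone body hydroxybutyrate, was at 7.75 ± 0.45 in NC and 6.36 ± 0.79 in the diabetic arrays (limma adjusted p = 0.0895). The 38 respiratory chain genes had a median of −0.02, with 0 passing in limma and 1 higher and 3 lower at an unadjusted p below 0.05.

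Interferon response and class I antigen presentation genes were nearly all positive, and 2 passed. Of 9 measured class II antigen presentation genes 5 were positive, with a median of 0.02 and 0 passing in limma. Ifit2, which restrains translation of viral RNA, was at 4.49, 3.56, 3.87 and 4.30 in NC and between 4.60 and 5.36 in the diabetic arrays (limma adjusted p = 0.0442), and has no fold because NC and the diabetic mean lay below background. H2-D1, a heavy chain of MHC class I, was at 6.71, 6.49, 6.83 and 6.47 in NC and between 6.97 and 7.61 in the diabetic arrays. It rose by 0.61 ± 0.12 without overlap (limma adjusted p = 0.0437). Ifit2 and H2-D1 passed in 3 and 2 of the 12 omissions, and with the atrial covariate their limma adjusted p was 0.0656 and 0.0641. Genes of other lists also did not pass with that covariate, as given below. Of 27 interferon-stimulated genes 24 were positive, of 11 interferon-inducible GTPases 11, and of 16 class I genes 15, with medians of 0.29, 0.50 and 0.27. Respectively 13, 9 and 9 of them were higher at an unadjusted p below 0.05, where 6.74% of all genes were. In at least 1 group 13, 10 and 16 of them were above background. The mean of the interferon-stimulated genes lay below it in NC (4.24) and in the diabetic arrays (4.54). The GTPases held 0 genes that passed in limma, and their mean ran from 5.48 to 5.65 in DM and from 5.61 to 6.27 in DM_AngIV, with NC between 5.16 and 5.47. Without the arrays with Myl7 above background, which leaves mostly DM_AngIV arrays on the diabetic side, their median was 0.81. Over all arrays it was 0.30 in DM and 0.79 in DM_AngIV, each against NC.

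Macrophage and monocyte markers were mostly positive as well. Of 16 measured markers 15 were positive, 0 passed in limma and the median was 0.32. At an unadjusted p below 0.05, 9 of them were higher, where 6.74% of all genes were. Their mean lay between 5.16 and 5.30 in NC and between 5.21 in DM replicate 4 and 6.06 in DM replicate 1 in the diabetic arrays. The defining markers Adgre1 and Csf1r had differences of 0.17 and 0.34 (limma adjusted p = 0.784 and 0.335). For T and NK cells 0 of 11 markers were above background. Of 13 endothelial markers 9 were positive, with a median of 0.14, and of 11 fibroblast markers 3 were positive, with a median of −0.05. Fabp4 is also 1 of 12 measured fat cell markers, of which 3 were positive, with a median of −0.25, and whose mean lay between 4.34 and 5.34 in NC and between 4.56 and 4.96 in the diabetic arrays. The part of these cell types in the genes above was not tested.

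Outside these lists, Cyp1a1, a cytochrome P450 that the aryl hydrocarbon receptor induces, was higher. It was at 3.19, 2.81, 2.42 and 2.10 in NC, not above background, at 5.93, 4.70, 5.30 and 4.78 in DM and at 3.43, 5.67, 5.52 and 8.30 in DM_AngIV. All 8 diabetic values were above NC, but they spread from below background in DM_AngIV replicate 1 to 8.30 in DM_AngIV replicate 4, and Cyp1a1 was at least 1.41-fold higher (limma adjusted p = 0.0454). It passed in 4 of the 12 omissions. Apod, a lipocalin that carries small lipids, was at 6.62, 5.94, 6.42 and 6.26 in NC and between 7.08 and 9.0 in the diabetic arrays, and rose by 1.43 ± 0.29 (SE; limma adjusted p = 0.0437). Abca1, which exports cholesterol from cells, rose by 1.04 ± 0.20 (0.0401), and Mylip, a ubiquitin ligase that removes the LDL receptor, rose by 0.94 ± 0.15 (0.0152). The other genes among the 12 largest rises were Rhobtb1 (1.05), Tspan4, a tetraspanin (0.99), and Cnksr3, a signalling scaffold (0.97), with limma adjusted p of 0.0141, 0.00843 and 0.0187. Of the genes that passed and were above background in both groups, Zbtb16 and Apod rose most. Zbtb16 passed in 11 of the 12 omissions, Apod in 3 and Abca1 in 4.

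Among the falls, Epha4 was the steadiest after Arntl. It was at 6.54, 6.62, 6.81 and 6.62 in NC and between 5.40 and 6.07 in the diabetic arrays, with a median of 5.65, and fell by 0.96 ± 0.12 (SE; limma adjusted p = 0.00409). Of 17 Eph receptors and ephrins Epha4 alone passed, 9 were positive and the median was 0.00. Myl1, an essential light chain of fast skeletal muscle myosin, was at 7.96, 7.87, 7.70 and 7.60 in NC and between 6.00 and 7.15 in the diabetic arrays, and fell by 1.16 ± 0.19 (limma adjusted p = 0.0152). The 12 skeletal muscle markers beside it held 0 genes that passed in limma, with 3 lower at an unadjusted p below 0.05, where 6.04% of all genes were. Only 3 of the 12 markers were above background in at least 1 group, so the rest can show little of a change in skeletal muscle RNA. Spon2, an extracellular matrix protein, was not above background in the diabetic arrays and was at least 1.09-fold lower (limma adjusted p = 0.00843). Trp53i11 (−0.92), Itgb6, an integrin subunit (−0.77), Ccdc69 (−0.75), Dad1, a subunit of the oligosaccharyltransferase (−0.67), Mal, a membrane raft protein (−0.65), and Lingo3 (−0.62) completed the 12 largest falls with Clock, at limma adjusted p between 0.0159 and 0.0454.

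**Figure D4:**
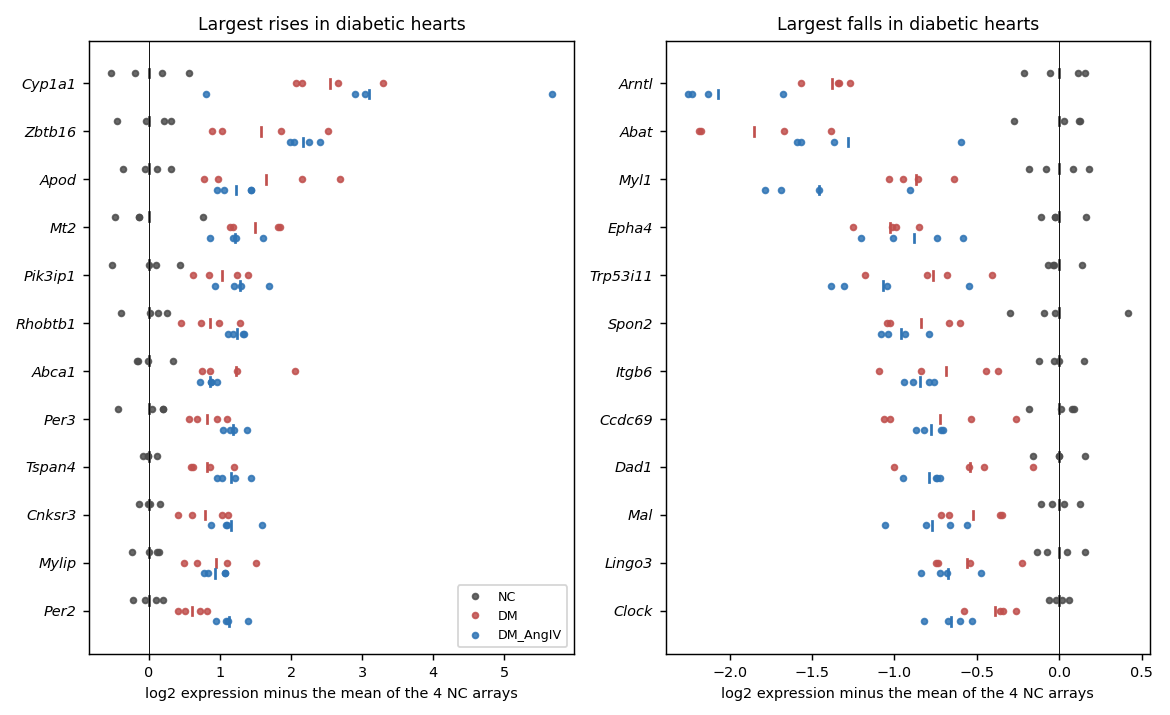
Log2 expression on each array (dots, coloured by group, with a short bar at each group's mean), minus the mean of the 4 NC arrays, of the 12 genes with the largest rises and the 12 with the largest falls among genes that passed, did not overlap between NC and diabetic arrays and were above background in the higher group. Cyp1a1 has the widest diabetic spread, with expression from 3.43 to 8.30, and no diabetic dot overlaps an NC dot of the same gene.

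Of the 66 genes, 8 overlapped between the groups. Retnla, a secreted resistin-like protein, was lower, from 6.22 ± 0.73 to 4.15 ± 0.83 (SD, n = 4 and n = 8; limma adjusted p = 0.0356), but DM replicate 4, at 5.91, lay above NC replicate 4, at 5.25, and was the only diabetic array above background. The others were Xdh, the purine enzyme xanthine dehydrogenase (difference 0.99), Gstt2, a glutathione transferase (0.80), Rbp7, a retinol binding protein (0.62), and 4 genes near background. Of these, Pld1, a phospholipase, was at least 1.10-fold higher and Mrgprh at least 1.33-fold lower, while the uridine phosphorylase Upp1 (higher) and the olfactory receptor Olfr1080 (lower) have no fold. Further genes without overlap were the drug and urate exporter Abcg2 (0.79), the cell cycle kinase Cdk6 (0.79), the kinase Pim3 (0.76) and Fbxw7 (−0.48), which selects targets for ubiquitination. The genes of this paragraph were named after their values were seen. Of the 66, 6 were above background in neither group, Olfr1080 among them.

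Genes of the study's field that did not pass included those of heart strain and fibrosis. Nppa and Nppb, the natriuretic peptides of stretched muscle, had differences of −0.37 ± 0.73 and −0.05 ± 0.36 (SE; limma adjusted p = 0.890 and 0.976). Nppa ran from 5.12 in DM replicate 3 to 10.51 in DM replicate 2. Myh7, the slow myosin of the fetal and strained mouse heart, was at 10.06 ± 0.24 in NC and 10.91 ± 0.62 in the diabetic arrays (SD; limma adjusted p = 0.177). The fibrillar collagens Col1a1 and Col3a1 had differences of −0.30 ± 0.14 and −0.81 ± 0.23 (SE; 0.379 and 0.134). In DM and DM_AngIV, each against NC, Col3a1 had −0.45 (limma adjusted p = 0.525) and −1.17 (0.0128), and between them −0.72 (0.511). In the model with 3 group means Col3a1 passed over both diabetic groups (limma adjusted p = 0.0493). Of 43 fibrosis and matrix genes 0 passed in limma, 15 were positive and the median was −0.11 (0.01 in DM and −0.21 in DM_AngIV). At an unadjusted p below 0.05, 2 of them were higher and 8 lower, where 6.74% of all genes were higher and 6.04% lower. Of 39 autophagy and lysosome genes 0 passed in limma, 25 were positive and 9 were higher at an unadjusted p below 0.05, with the smallest adjusted p for Bnip3, a mitophagy receptor (difference 0.56, adjusted p = 0.0874). The 15 genes of the renin-angiotensin system had a median of −0.04 (0.04 without the arrays with Myl7 above background), with 0 at an unadjusted p below 0.05 and the smallest limma adjusted p, 0.396, for Anpep, an aminopeptidase of angiotensin peptides.

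Within the diabetic hearts, DM_AngIV and DM differed in 0 genes in limma (smallest adjusted p 0.253, and 1459 genes, 7.48%, at an unadjusted p below 0.05). The difference itself uses no NC array, but the NC arrays enter the shared estimate of the spread. With only the 8 diabetic arrays in the fit, 0 genes passed (smallest limma adjusted p 0.440). In the fit of all arrays, the comparison gave 5 genes without DM_AngIV replicate 2 and 1 without DM_AngIV replicate 4. Among the 66 genes 16, or 24.2%, had an unadjusted p below 0.05 between the diabetic groups, and the median absolute difference between them was 0.20, beside 0.11 over all genes. The DM_AngIV mean lay above the DM mean for 35 of the 45 higher genes and below it for 18 of the 21 lower genes. Zbtb16 had a difference from NC of 1.57 in DM and 2.17 in DM_AngIV. Abat went the other way, with −1.86 and −1.28, as did Apod, with 1.65 and 1.22.

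Set against NC 1 group at a time, DM gave 3 genes (0.0154%), Arntl, Abat and Epha4, all lower, and DM_AngIV gave 198 (1.02%), with 142 higher and 56 lower. Both comparisons use the same 4 NC arrays. Their values for single genes are therefore given side by side. The DM count was 30 without DM replicate 4, 6 without NC replicate 1, 5 without NC replicate 2, and 2 if NC replicate 3 or DM replicate 2 was left out. The DM_AngIV count was 95, 81 and 101 without NC replicates 1, 2 and 4, and 97, 82 and 84 without DM_AngIV replicates 2, 3 and 4. Per3 had differences of 0.82 and 1.19, Cpt1a of 0.73 and 0.86 and Mt1 of 0.70 and 0.70, in DM and DM_AngIV in turn. The 5 arrays with Myl7 above background are all NC or DM arrays, and the part of atrial muscle in these counts was not tested. With the mean of the atrial markers Myl7, Myl4 and Sln as a covariate the pooled count was 43, of which 38 were among the 66. Clock, Cpt1a, Fabp4 and Fbxo32 did not pass with it (limma adjusted p = 0.0641, 0.0720, 0.0603 and 0.0519). Cyp1a1, Pfkfb3, Ifit2 and H2-D1 were also among the genes that did not.

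**Figure D5:**
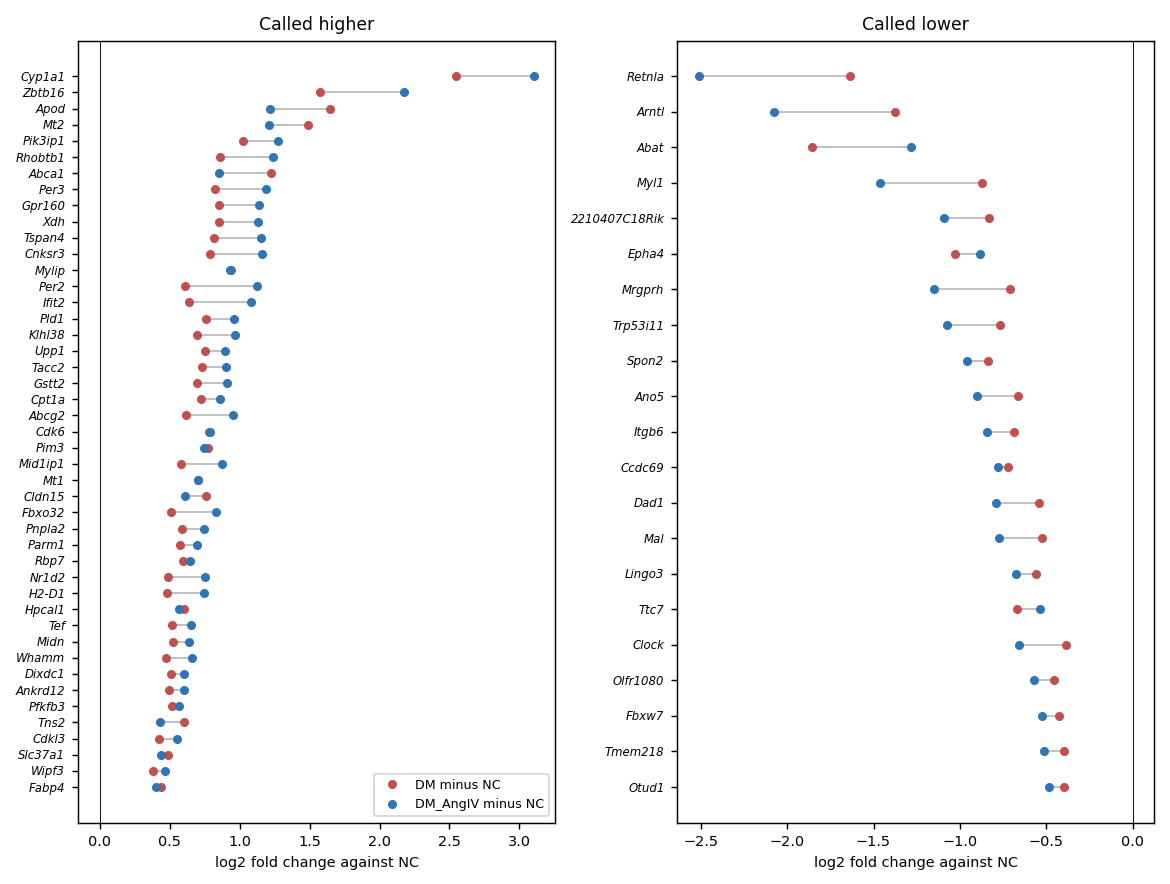
Log2 fold change from NC (horizontal axis) of each of the 66 genes (rows, 45 higher and 21 lower) in DM and in DM_AngIV, both against the same 4 NC arrays, joined by a line. Zbtb16 is at 1.57 and 2.17 and Abat at −1.86 and −1.28. Genes not above background in a group, such as Arntl and Cyp1a1, are plotted as measured.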

How the data were processed

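RNA of the myocardium of 12 mice (6 µg each, per the labels) was hybridised to single-colour arrays. The values are log2 expression in a table deposited by the authors and made by RMA (background correction, scaling to a common distribution and summary over probes) per the submitters' processing notes, with its version not given in the sources used here. Of 29129 probe sets, 19572 had 1 gene symbol in GEO's platform annotation, 0 had several, 2634 gene probe sets had none and 6923 were controls. All 19572 matched the RefSeq gene table (GRCm38.p6). For 55 symbols with several probe sets the one with the highest mean was used, which left 19505 genes.

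All 8 diabetic arrays were compared with the 4 NC arrays in a linear model with 1 mean per group, so that the spread between the diabetic groups counts as error. The fit used limma 3.58.1 (lmFit, eBayes) under R 4.3.3 (two-sided, Benjamini-Hochberg over all genes, adjusted p below 0.05). Comparisons of the separate groups came from a model with 3 means. Replicates are separate mice per the series design. The members and the gene lists were chosen with earlier results of these data known. Lists (39 of processes, 18 of cell type markers) are described by counts and medians and were not tested.

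The named genes were the 12 largest rises and falls that passed, did not overlap and were above background (the 95th percentile, 4.96, of 246 reporter control probe sets) in the higher group, leaving out predicted genes; each list's members that passed, up to 4, or else its 1 member of smallest p, where the text describes the list; and 16 fixed genes, of which 14 were analysed here. A fold for a gene not above background in 1 group is a lower bound, from that group's values raised to the background level, added after seeing the data. The arrays give no depth, and their number limits the precision. Alternatives covered the model, threshold, dim genes, replicate block, probe set rule, scaling, array weights, variance prior, atrial signal and single arrays. Plots were made in Python 3.11.15 with matplotlib 3.10.9.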

Additional observations from a re-analysis of the deposited data

Results flagged for a closer look

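In the diabetic group Abca1 stood apart on 1 array, with 7.23 in DM replicate 1 where the next array was at 6.40 and the lowest at 5.88. In NC, Mt1 stood apart on 1 array, with 9.87 in replicate 2, beside 9.72 for the next and 9.69 for the lowest. Of 142 groups of values looked at in this way 2 held such an array, where chance alone gives about 5% of groups. Of 2634 gene probe sets without a gene name here, which the comparisons of the report do not use, 1 passed between all diabetic and NC arrays. It was higher by 0.63 on the log2 scale (limma adjusted p = 0.0457).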

How the results depend on the processing

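For the 66 genes of all diabetic arrays against NC, the count was 123 with a mean for each of the 3 groups, 213 at an adjusted p below 0.1, 236 among the 8850 genes above background on at least 4 arrays, 192 without the lower-expressed genes, 204 with an intensity trend, 43 with the atrial covariate and 0 without the arrays with Myl7 above background. The filters test fewer genes, and the last omission leaves fewer arrays, mostly DM_AngIV on the diabetic side. For the other settings the cause was not tested. It was 66 with the mean of the probe sets of a symbol, 72 with quantile normalisation, 68 with median centring, 58 with array weights and 71 with a robust prior. Leaving out 1 array gave 2 to 223. For DM_AngIV against DM, leaving out 1 array gave 0 to 5, for DM against NC 2 to 30 and for DM_AngIV against NC 81 to 167. At an adjusted p below 0.1, DM against NC gave 17 and DM_AngIV against NC 509.

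Replicate numbers do not pair the mice in these values: same-numbered arrays deviated together with r between −0.098 and 0.171, over 0.1 in 1 of 12 pairs. With a replicate block the count of 66 was 21, and 40 in the model of 3 groups with a replicate block. With that block DM against NC gave 3, DM_AngIV against NC 115 and DM_AngIV against DM 0.

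The genes named here that passed kept their direction in all 878 values under alternatives and lost the call in 268. For those without overlap, leaving arrays out could not change the direction. Of 958 values of named genes that had not passed, 86 passed and 13 changed sign. Among those, Myh6 was −0.0115 with quantile normalisation and −0.00948 with the atrial covariate, and Foxo1 −0.00535 without the arrays with Myl7. Myl7 was 0.219 with the atrial covariate. Since Myl7 is among the genes averaged in that covariate, this value cannot show a change in Myl7. With 1 array left out, Myh6 ran from −0.0235 to 0.0361, Nppa from −0.633 to 0.138, Nppb from −0.228 to 0.274 and Myl7 from −1.73 to 0.391. Of 1014 list medians 19 moved by more than the spread between replicates (1 SD). Signal near background limits Per2, Tef, Ifit2, Cyp1a1, Pfkfb3, Pld1, Upp1, Mrgprh, Olfr1080, 2210407C18Rik, Spon2 and Arntl among the genes named, whose folds are lower bounds or not given.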
